A study of Mus musculus with 6 samples.

Results

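The genes described here are the 10 members of the MHC class II presentation apparatus that the gene table lists as H2-Aa, H2-Ab1, H2-Eb1, H2-DMa, H2-DMb1, H2-DMb2, H2-Oa, H2-Ob, Cd74 and Ciita. They were chosen by symbol. All 10 were found among the 16511 genes of the table, and all 10 were among the 12234 genes kept by the filter on low counts. RNA had been sequenced from splenic B cells of mice in 6 libraries, 3 labelled GPR40-KO and 3 labelled GPR40-WT. GPR40 is the fatty acid receptor encoded by Ffar1. The series' design text writes GPR40-BKO for the knockout animals where the sample labels write GPR40-KO. The strain, the ages, any treatment, the cells in which the gene was deleted and the way it was deleted were not given in the labels. B cells were left untouched while other spleen cells were removed on magnetic beads. Nothing in the labels ties replicates to separate animals. The p-values therefore rest on the variation among these 6 libraries, part of which may be technical.

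Ffar1, the gene named in the genotype, had 273, 392 and 304 counts in the KO-labelled libraries and 0 counts in each of the 3 labelled WT, where a count of 0 allows up to 3 counts, or 0.194 to 0.198 CPM (the count scaled to library size). The targeted gene goes against the labels. For this reason the groups are called by their labels throughout, and every direction is that of the KO-labelled libraries relative to the WT-labelled libraries. Totals lay between 14907080 and 15461425 counts per library.

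MHC class II molecules show peptides from endocytosed proteins to CD4+ T cells, and B cells use them to receive T cell help. An alpha and a beta chain assemble around the invariant chain, encoded by Cd74, which fills the peptide groove and steers the complex to endosomes. There H2-DM exchanges the remaining invariant chain fragment for peptides, and H2-O, found mainly in B cells, restrains H2-DM. Ciita encodes the coactivator CIITA, which binds no DNA itself but is recruited by factors sitting on the X and Y boxes shared by class II promoters.

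The promoters of the members are shown because these boxes are the common feature through which CIITA acts. Promoter sequences from RefSeq on GRCm38.p6 ran from 250 bases before to 50 after the start that each record uses. They were found for 7 of the 10 members, in 8 records. For H2-DMa and H2-DMb2 the whole window lies inside the annotated gene, past the gene start given below. Both strands were searched for the Y box core TGATTGG and for AACNNATG, the core of the X box. The Y box core was present in 6 of the 7 members and the X box core in 4, all of which also held the Y box core. Among all 32851 promoters of the same length, 7.82% held TGATTGG, 8.86% held AACNNATG and 0.785% held both. Neither string occurred in the 2 records of H2-DMa, which says only that these letters are not in those windows. The same holds for AACNNATG in H2-Aa and H2-Oa. Variant forms of the boxes were not searched for, so an X box in these promoters is not excluded. Each line gives 60 bases in the direction of transcription, with the cores in capitals, aligned so that the Y box core begins at base 46.
H2-Aa, chr17:34287859-34287918, minus strand: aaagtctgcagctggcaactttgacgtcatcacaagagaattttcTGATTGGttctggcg
H2-Eb1, chr17:34305761-34305820, plus strand: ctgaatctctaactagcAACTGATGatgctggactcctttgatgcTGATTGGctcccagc
H2-DMb1, chr17:34153083-34153142, plus strand: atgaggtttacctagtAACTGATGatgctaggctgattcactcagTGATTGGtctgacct
H2-DMb2, chr17:34145112-34145171, plus strand: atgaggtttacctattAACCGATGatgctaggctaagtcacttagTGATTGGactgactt
H2-Oa, chr17:34092289-34092348, plus strand: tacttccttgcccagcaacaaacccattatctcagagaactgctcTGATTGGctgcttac
H2-Ob, chr17:34238801-34238860, plus strand: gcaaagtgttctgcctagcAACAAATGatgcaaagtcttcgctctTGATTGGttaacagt

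In these windows the Y box core began between 45 bases (H2-Oa) and 92 bases (H2-DMb2) before the start that the promoter record uses. Where both cores were present, 18 to 21 bases lay between them. A match is a description of the sequence and not evidence of binding, and no binding was measured in these libraries.

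Scaled by TMM, which sets library sizes from the bulk of all genes, 9 of the 10 members were higher in the KO-labelled libraries, none was lower, and H2-Ob did not pass; scaled instead to the summed counts of 12 pan-B genes, 7 of the 10 differences were below 0, 0 were called higher and H2-Ob was called lower. With the pan-B scale 74.4% of all tested genes were called lower and 0.597% higher, and the median of all tested genes was -0.83. With TMM 9.37% of all tested genes were called, 4.55% as higher and 4.81% as lower. Within the members' range of mean expression (71.1 to 4411 CPM) 14.1% were called, 9.28% as higher and 4.8% as lower. The median log2 fold change was 0.70 over the members, 0.01 over all tested genes and 0.04 over genes in the members' expression range. In the same 9 members every KO-labelled library lay above every WT-labelled library, as in 17.5% of all tested genes. With the replicate number as a block, a pairing that the labels do not state, all 10 members passed higher, against 7.96% of all tested genes. The number called depended on single libraries. Without KO replicate 1, 2 or 3, the members called numbered 3, 2 and 7. Without WT replicate 1, 2 or 3, they numbered 6, 10 and 4. Among all tested genes 557 were called higher, and 196, 169 and 385 without KO replicate 1, 2 or 3. Without WT replicate 1, 2 or 3, this count was 368, 830 and 271. The count over all tested genes thus moved in the same direction as that of the members in each fit. In bulk samples, fewer cells of a type and less RNA per cell cannot be told apart.

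**Figure D1:**
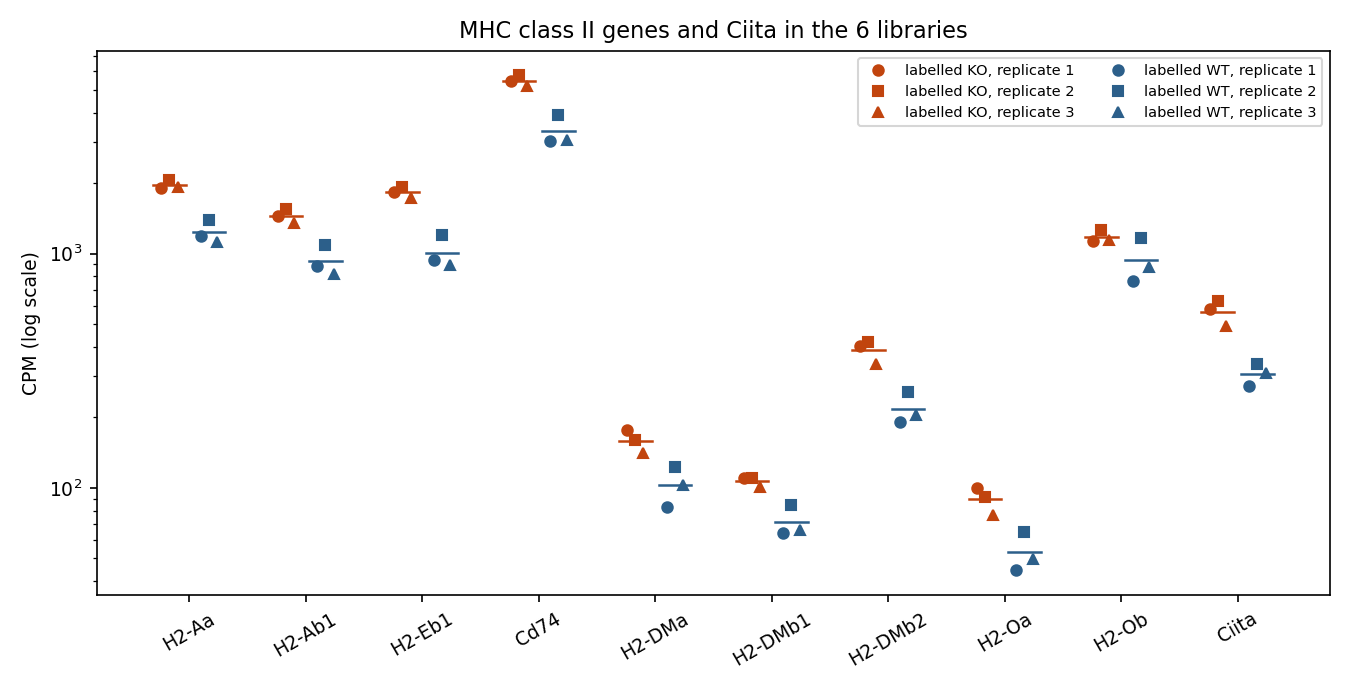
Expression of each member as TMM-scaled CPM on a log axis, with 1 point per library and a bar at each group's mean, KO-labelled libraries to the left of the WT-labelled libraries. With this scaling the groups separate for 9 members and overlap for H2-Ob, where WT replicate 2 lies above the lowest KO-labelled library; scaled to 12 pan-B genes, 7 of the 10 differences are below 0.

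The classical chains were first. H2-Aa encodes the alpha chain of I-A and lies on chromosome 17 from 34282744 to 34287823, minus strand, in GRCm38.p6, the assembly of all gene coordinates given here. H2-Aa had 1913, 2070 and 1918 CPM in the KO-labelled libraries, against 1189, 1389 and 1122 CPM in the WT-labelled libraries. The groups did not overlap, and WT replicate 2 was the highest of its group. The log2 fold change was 0.67 ± 0.10 (SE, edgeR adjusted p = 0.00758, n = 3 per group), and the call was lost without KO replicate 2 (edgeR adjusted p = 0.0569).

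H2-Ab1, the beta chain of I-A (chromosome 17, 34263227 to 34269418, plus strand), had 1445, 1546 and 1346 CPM in the KO-labelled libraries, against 890.3, 1091 and 822.1 CPM in the WT-labelled libraries. Again the groups were apart, with WT replicate 2 nearest to the KO-labelled libraries. Its log2 fold change was 0.63 ± 0.12 (edgeR adjusted p = 0.0194), and the call was lost when KO replicate 1, KO replicate 2, WT replicate 1 or WT replicate 3 was left out, with adjusted p-values up to 0.109.

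H2-Eb1 encodes the beta chain of I-E (chromosome 17, 34305867 to 34316674, plus strand). It had 1843, 1921 and 1732 CPM in the KO-labelled libraries, against 937.2, 1205 and 891.9 CPM in the WT-labelled libraries. Even the lowest KO-labelled library was well above WT replicate 2. The log2 fold change of 0.86 ± 0.12 (edgeR adjusted p = 0.00653) was a 1.81-fold difference, and the call held with any single library left out (highest adjusted p = 0.0479). Its neighbour H2-Eb2, a related beta chain gene that is not a member, had 218.4, 208.3 and 198.4 CPM in the KO-labelled libraries, against 176.5, 189.8 and 171.5 CPM in the WT-labelled libraries. That difference was smaller and did not pass (log2 fold change 0.22 ± 0.08, edgeR adjusted p = 0.116).

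Cd74, which encodes the invariant chain (chromosome 18, 60803849 to 60812652, plus strand), was the member with the highest level. It had 5472, 5769 and 5217 CPM in the KO-labelled libraries, against 3034, 3923 and 3048 CPM in the WT-labelled libraries. WT replicate 2 was again the highest of its group, and it lay below all 3 KO-labelled libraries. The log2 fold change was 0.72 ± 0.12 (edgeR adjusted p = 0.0111), and the call was lost without KO replicate 1, KO replicate 2 or WT replicate 3 (adjusted p up to 0.0786).

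On the TPM scale, which is per transcript length and so allows levels of different genes to be set side by side, Cd74 stood at 9638 ± 818 TPM in the KO-labelled libraries and 5929 ± 1012 TPM in the WT-labelled libraries (SD, n = 3 each). H2-Aa followed at 3896 ± 298 TPM in the KO-labelled libraries and 2477 ± 326 TPM in the WT-labelled libraries. Ciita was lowest, at 149.9 ± 23.8 TPM in the KO-labelled libraries and 82.3 ± 9.26 TPM in the WT-labelled libraries. Between them came H2-Ab1, H2-Eb1, H2-Ob, H2-DMb2, H2-Oa, H2-DMa and H2-DMb1, in that order of level in the KO-labelled libraries. Each neighbour in this order was above the next in all 6 libraries, except that H2-Oa exceeded H2-DMa in the 3 labelled KO and in 0 labelled WT, and H2-DMa exceeded H2-DMb1 in 2 labelled KO and 2 labelled WT. Together the members made up 2.06%, 2.22% and 1.86% of all TPM in the KO-labelled libraries, against 1.17%, 1.53% and 1.14% in the WT-labelled libraries.

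Cd74 is spliced into a short and a long form, and the long form carries an extra exon. The form with 8 exons (NM_010545) made up 93.0 ± 0.751% of the gene's estimated transcript counts in the KO-labelled libraries and 92.0 ± 0.802% in the WT-labelled libraries (SD, n = 3 each). The form with 9 exons (NM_001042605) made up 6.99 ± 0.766% in the KO-labelled libraries and 8.06 ± 0.773% in the WT-labelled libraries. Neither share differed beyond the spread between libraries (exact two-sided permutation p = 0.2 for each, with 0.1 the smallest p that 3 against 3 can give).

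H2-DM and H2-O act on the loaded molecules. H2-DMa, the alpha chain of H2-DM (chromosome 17, 34119693 to 34139101, plus strand), had 176.6, 160.4 and 140.6 CPM in the KO-labelled libraries, against 83.0, 123.1 and 102.7 CPM in the WT-labelled libraries. Its groups did not overlap, but the lowest KO-labelled library and WT replicate 2 lay close together. With a log2 fold change of 0.63 ± 0.15 (edgeR adjusted p = 0.0437) it was the member nearest to the threshold among those called. The call held only without WT replicate 2 among the 6 fits with a library left out (adjusted p up to 0.173), and it was also lost with library totals as the only scaling (adjusted p = 0.0506) and with no filter on low counts (adjusted p = 0.0526). The annotated gene overlaps Brd2, which lies on the opposite strand, by 3122 bases, and no step that keeps the strand is stated, so reads of this stretch cannot be assigned to either gene.

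The beta chain of H2-DM has 2 genes in the mouse. H2-DMb1 (chromosome 17, 34153191 to 34160229, plus strand) had 109.8, 109.7 and 101.2 CPM in the KO-labelled libraries, against 63.9, 84.4 and 66.2 CPM in the WT-labelled libraries. H2-DMb2 (chromosome 17, 34143229 to 34151553, plus strand) had 401.7, 421.7 and 338.1 CPM in the KO-labelled libraries, against 190.2, 257.3 and 205.1 CPM in the WT-labelled libraries. Both genes separated the groups. Their log2 fold changes were 0.58 ± 0.12 for H2-DMb1 (edgeR adjusted p = 0.0232) and 0.83 ± 0.13 for H2-DMb2 (edgeR adjusted p = 0.0100). The first call was lost without any 1 KO-labelled library or without WT replicate 3 (adjusted p up to 0.119), and the second without KO replicate 1 or KO replicate 2 (adjusted p up to 0.0656). The transcripts of the pair, of 1404 and 1424 bases, are 94.4% identical over 1255 aligned bases. With the 318 gap columns counted, identity is 75.3% over 1573 columns. The division of reads from the like stretches may be uncertain, and its extent was not measured.

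H2-Oa, the alpha chain of H2-O (chromosome 17, 34092379 to 34095234, plus strand), had 99.7, 91.7 and 76.5 CPM in the KO-labelled libraries, against 44.6, 64.7 and 49.7 CPM in the WT-labelled libraries. The groups did not overlap, and the log2 fold change was 0.75 ± 0.16 (edgeR adjusted p = 0.0275). That call was lost without KO replicate 1, KO replicate 2, WT replicate 1 or WT replicate 3 (adjusted p up to 0.130). H2-Ob, the beta chain of H2-O (chromosome 17, 34238905 to 34245908, plus strand), had 1129, 1260 and 1141 CPM in the KO-labelled libraries, against 767.2, 1166 and 876.1 CPM in the WT-labelled libraries. Here WT replicate 2 was above 2 of the KO-labelled libraries, and the groups overlapped. The log2 fold change of 0.33 ± 0.15 did not pass (edgeR adjusted p = 0.196). It passed with the replicate number as a block (adjusted p = 0.0363) and without WT replicate 2 (adjusted p = 0.0132).

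Ratios between members were formed within each library from TPM, so that they do not depend on how libraries are scaled to each other. The 6 ratios were tested with an exact two-sided permutation over libraries, whose smallest p is 0.1, so none could reach the threshold. H2-O over H2-DM, each summed over its chains, was 0.02, 0.11 and 0.20 in log2 in the KO-labelled libraries, against 0.37, 0.51 and 0.42 in the WT-labelled libraries. All 3 KO-labelled libraries were below all 3 labelled WT, at 0.798 times the mean ratio (exact p = 0.1, 0.2 after Benjamini-Hochberg adjustment over 6 ratios). Most of the H2-O sum was H2-Ob, with means of 815 TPM in the KO-labelled libraries and 656.9 TPM in the WT-labelled libraries. The means of H2-Oa were 195.8 and 117.6 TPM. The H2-O sum thus mainly follows H2-Ob, and the ratio of H2-Oa alone to H2-DM was not formed. H2-Oa over H2-Ob was -2.07 ± 0.20 in log2 in the KO-labelled libraries and -2.48 ± 0.03 in the WT-labelled libraries, again without overlap (exact p = 0.1, adjusted 0.2). H2-DMb2 over H2-DMb1 was 1.68 ± 0.10 in log2 in the KO-labelled libraries and 1.43 ± 0.03 in the WT-labelled libraries, also without overlap (exact p = 0.1, adjusted 0.2). That ratio rests on how reads were divided between these like transcripts.

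The other 3 ratios overlapped between the groups. Alpha over beta chain of I-A, H2-Aa over H2-Ab1, was 0.55 ± 0.06 in log2 in the KO-labelled libraries and 0.51 ± 0.05 in the WT-labelled libraries (exact p = 0.5). Cd74 over the sum of H2-Aa, H2-Ab1 and H2-Eb1 was 0.14 ± 0.01 in the KO-labelled libraries and 0.12 ± 0.06 in the WT-labelled libraries (exact p = 0.9). H2-DMa over the sum of its beta chains was -2.00 ± 0.10 in the KO-labelled libraries and -1.87 ± 0.11 in the WT-labelled libraries (exact p = 0.2).

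**Figure D2:**
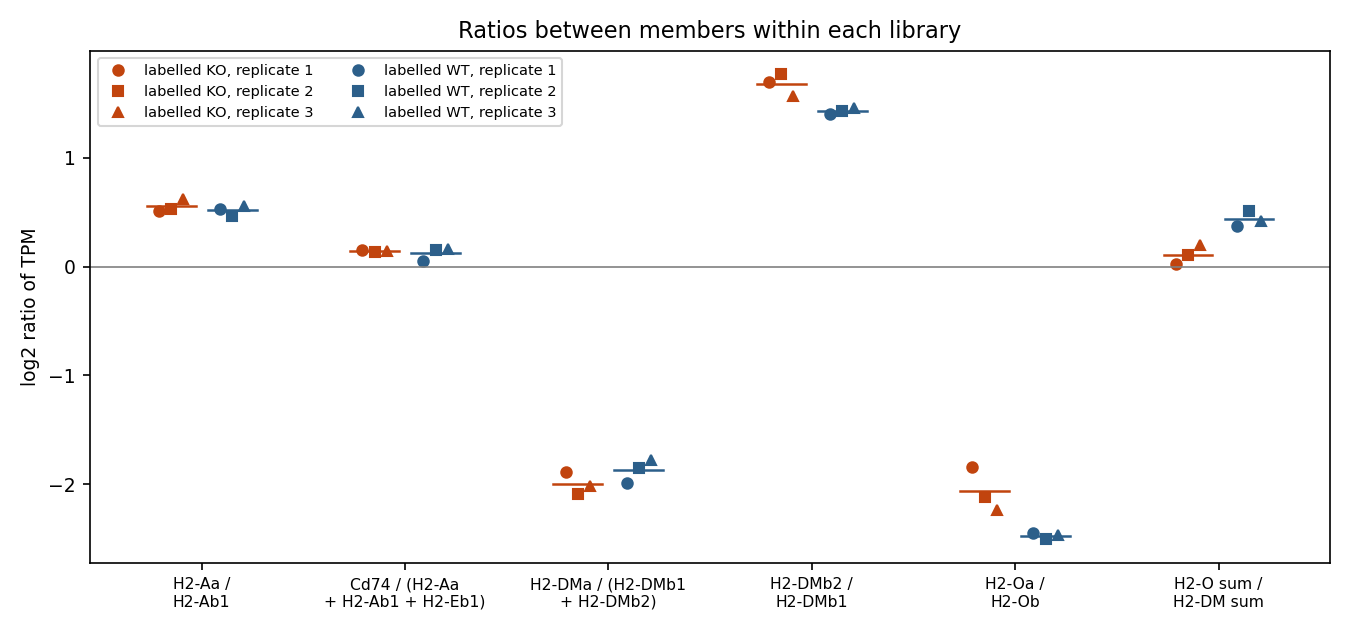
Log2 ratios of TPM between members within each library, with 1 point per library, a bar at the mean, and KO-labelled libraries left of the WT-labelled libraries. H2-O over H2-DM is lower in all 3 KO-labelled libraries (mean 0.11 against 0.43 in the WT-labelled libraries), H2-Oa over H2-Ob and H2-DMb2 over H2-DMb1 are higher in all 3, and the remaining 3 ratios overlap. The H2-O sum is mostly H2-Ob.

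Ciita (chromosome 16, 10480014 to 10531064, plus strand) had 579.6, 626.8 and 490.7 CPM in the KO-labelled libraries, against 271.6, 337.0 and 308.1 CPM in the WT-labelled libraries. Every KO-labelled library was clear of every WT-labelled library. Its log2 fold change of 0.89 ± 0.12 (edgeR adjusted p = 0.00449) was a 1.85-fold difference, and the call held with any single library left out (highest adjusted p = 0.034).

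Mouse Ciita is transcribed from alternative promoters, of which the first is used by dendritic cells and other myeloid cells, the third by B cells and the fourth after interferon gamma. In GENCODE M21 the most upstream start (NM_001243760) is at 10480059 on chromosome 16, the B cell start (NM_007575) lies 8220 bases downstream of it and the interferon start (NM_001243761) lies 9722 bases downstream. NM_007575 made up 44.3 ± 1.33% of the gene's estimated transcript counts in the KO-labelled libraries and 43.4 ± 2.16% in the WT-labelled libraries (SD, n = 3 each). NM_001243760 made up 8.13 ± 0.254% in the KO-labelled libraries and 9.92 ± 1.10% in the WT-labelled libraries, without overlap (exact p = 0.1, the smallest possible). NM_001243761 made up 0.415 ± 0.501% in the KO-labelled libraries and 1.09 ± 1.89% in the WT-labelled libraries. Among these forms with a located start, the B cell form thus had the largest share in both groups. A predicted form (XM_036159756) took a similar share, 44.8 ± 2.35% in the KO-labelled libraries and 43.8 ± 6.09% in the WT-labelled libraries. Its start was not located here, so the promoter behind most Ciita transcripts was not established.

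The members have 24 transcripts in the transcript table, of which 18 were tested and 0 passed in edgeR, where 0.154% of all 31150 tested transcripts did, 0.119% as higher and 0.0353% as lower. At an unadjusted p under 0.05 there were 12, all higher in the KO-labelled libraries. DESeq2 called 11 and limma voom called 3. The shares of all tested transcripts at the unadjusted p, with DESeq2 and with limma voom are not given here. These counts therefore cannot be set against a background.

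CIITA acts through the factors on the X and Y boxes. Of 9 tested genes of these factors 1 was higher and 0 lower, with a median log2 fold change of 0.12. For this list and those below, 4.55% of all tested genes were higher and 4.81% lower with TMM and no block. Rfx5, the DNA-binding subunit of the RFX complex, had 120.6, 120.5 and 96.7 CPM in the KO-labelled libraries, against 66.9, 83.8 and 65.6 CPM in the WT-labelled libraries. It rose with a log2 fold change of 0.64 ± 0.13 (edgeR adjusted p = 0.0231), which was -0.18 when scaled to 12 pan-B genes. The call was lost without KO replicate 1, KO replicate 2, WT replicate 1 or WT replicate 3 (adjusted p up to 0.12). Rfxank, a further RFX subunit, Nfyb, a subunit of the Y box factor NF-Y, and Creb1, which binds the X2 box, had log2 fold changes of 0.21, 0.27 and 0.12 that did not pass.

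Among 17 genes that induce or repress Ciita, 2 were higher and 6 lower, with a median log2 fold change of -0.24; with the replicate block 4 were higher and 8 lower, where 12.8% of all tested genes were lower. Prdm1 encodes Blimp-1, which represses Ciita during plasma cell differentiation. It had 29.8, 24.5 and 23.8 CPM in the KO-labelled libraries, against 75.2, 102.4 and 100.4 CPM in the WT-labelled libraries, and fell by 1.83 ± 0.15 on the log2 scale (edgeR adjusted p = 0.000434). Zbtb32, a zinc finger repressor reported to act with Blimp-1 at Ciita in mouse B cells, moved the opposite way. It had 17.8, 12.8 and 13.1 CPM in the KO-labelled libraries, against 1.17, 0.526 and 1.06 CPM in the WT-labelled libraries, a log2 fold change of 3.98 ± 0.34 (edgeR adjusted p = 0.000557). Both calls held with any single library left out. Zbtb32 and Ffar1 both lie on chromosome 7, Ffar1 at 30860568 to 30861470. Whether position bears on the Zbtb32 difference was not tested.

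The remaining calls in that list lay on the interferon gamma route. Socs1, an inhibitor of JAK signalling, had 2.75 ± 0.306 CPM in the KO-labelled libraries and 9.40 ± 2.32 CPM in the WT-labelled libraries (SD, n = 3 each; log2 fold change -1.77 ± 0.29, edgeR adjusted p = 0.0101). Ifngr2, a chain of the interferon gamma receptor, had 102.7 ± 4.97 CPM in the KO-labelled libraries and 143.0 ± 7.26 CPM in the WT-labelled libraries (log2 fold change -0.48 ± 0.08, edgeR adjusted p = 0.0109). The Socs1 call was lost without KO replicate 2 (adjusted p = 0.0572) and the Ifngr2 call without KO replicate 1 (adjusted p = 0.0618). Ifngr1, Jak1 and Irf1 were also lower, with log2 fold changes of -0.42, -0.48 and -0.44. All 3 calls were lost without any 1 KO-labelled library or without WT replicate 3, and those of Ifngr1 and Irf1 also without WT replicate 1 (adjusted p up to 0.147). Ifng itself, at 37, 42 and 27 counts in the KO-labelled libraries against 0, 4 and 2 in the WT-labelled libraries, passed higher (edgeR adjusted p = 0.0233) and lost the call without KO replicate 1, KO replicate 2 or WT replicate 3. These last 4 genes were named after their values were seen.

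Of 15 tested genes for making and sorting class II peptides, 3 were higher and 4 lower, with a median of -0.49. With the replicate block 3 were higher and 9 lower, where 7.96% of all tested genes were higher and 12.8% lower. Ctsh, a lysosomal aminopeptidase, had 380.8 ± 24.6 CPM in the KO-labelled libraries and 276.4 ± 24.2 CPM in the WT-labelled libraries (log2 fold change 0.46 ± 0.09, edgeR adjusted p = 0.0240). Ap1b1, a subunit of the AP-1 sorting adaptor, had a log2 fold change of 0.36 ± 0.09 (edgeR adjusted p = 0.0397). Scaled to 12 pan-B genes both were below 0, at -0.39 and -0.48. Ctss, the protease that trims the invariant chain in B cells and dendritic cells, had 448.9 ± 62.3 CPM in the KO-labelled libraries and 722.8 ± 141.8 CPM in the WT-labelled libraries (log2 fold change -0.69 ± 0.16, edgeR adjusted p = 0.0411). Cst3, a secreted inhibitor of such proteases, had a log2 fold change of -0.46 ± 0.11 (edgeR adjusted p = 0.0439). The other calls were Ap1m1, a further AP-1 subunit (log2 fold change 0.30, edgeR adjusted p = 0.049992), Lgmn, a lysosomal endopeptidase (-1.02), and Lamp1, a lysosomal membrane protein (-0.84), all named after their values were seen. These 3 calls were lost without any 1 KO-labelled library, without WT replicate 1 or without WT replicate 3, with adjusted p-values up to 0.217. Ap1m1 also missed the threshold with DESeq2 size factors (edgeR adjusted p = 0.0579) and with library totals (0.0617), and stood at -0.54 when scaled to 12 pan-B genes. Each of the 4 calls on Ctsh, Ap1b1, Ctss and Cst3 was lost without KO replicate 1 or KO replicate 2, and all but that of Ctsh also without WT replicate 1 or WT replicate 3; that of Ap1b1 was lost without KO replicate 3 too.

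Of 8 tested genes for turnover and surface tuning, 1 was higher and 1 lower, with a median of -0.34. With the replicate block 2 were higher and 3 lower, where 7.96% of all tested genes were higher and 12.8% lower. Il10, a cytokine that can lower surface class II in myeloid cells, had 4.49 ± 1.27 CPM in the KO-labelled libraries and 0.850 ± 0.280 CPM in the WT-labelled libraries (log2 fold change 2.39 ± 0.45, edgeR adjusted p = 0.0185). Il10rb, a chain of its receptor, had a log2 fold change of -0.37 ± 0.09 (edgeR adjusted p = 0.0371). Both calls were lost without any 1 KO-labelled library or without WT replicate 3, and that of Il10rb also without WT replicate 1. Cd83, which protects class II from ubiquitination by MARCH1, had 123.8 ± 3.73 CPM in the KO-labelled libraries and 153.4 ± 22.7 CPM in the WT-labelled libraries and did not pass (edgeR adjusted p = 0.109). Cd4, the coreceptor that binds class II, had 7.39 ± 1.84 CPM in the KO-labelled libraries and 32.1 ± 22.7 CPM in the WT-labelled libraries and did not pass (edgeR adjusted p = 0.0731), except with the block (adjusted p = 0.00866) or without WT replicate 1 or WT replicate 2.

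MHC class I genes, which serve CD8+ T cells, gave a comparison within antigen presentation. None of 9 passed in edgeR, and their median log2 fold change was -0.16. B2m, the light chain of class I, had 858.8 ± 132.6 CPM in the KO-labelled libraries and 1097 ± 90.1 CPM in the WT-labelled libraries (edgeR adjusted p = 0.107). Nlrc5, the class I counterpart of Ciita, had 92.5 ± 21.1 CPM in the KO-labelled libraries and 147.2 ± 45.8 CPM in the WT-labelled libraries (edgeR adjusted p = 0.171). With the replicate block both were called lower (edgeR adjusted p = 0.0143 and 0.00111), where 12.8% of all tested genes were lower.

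**Figure D3:**
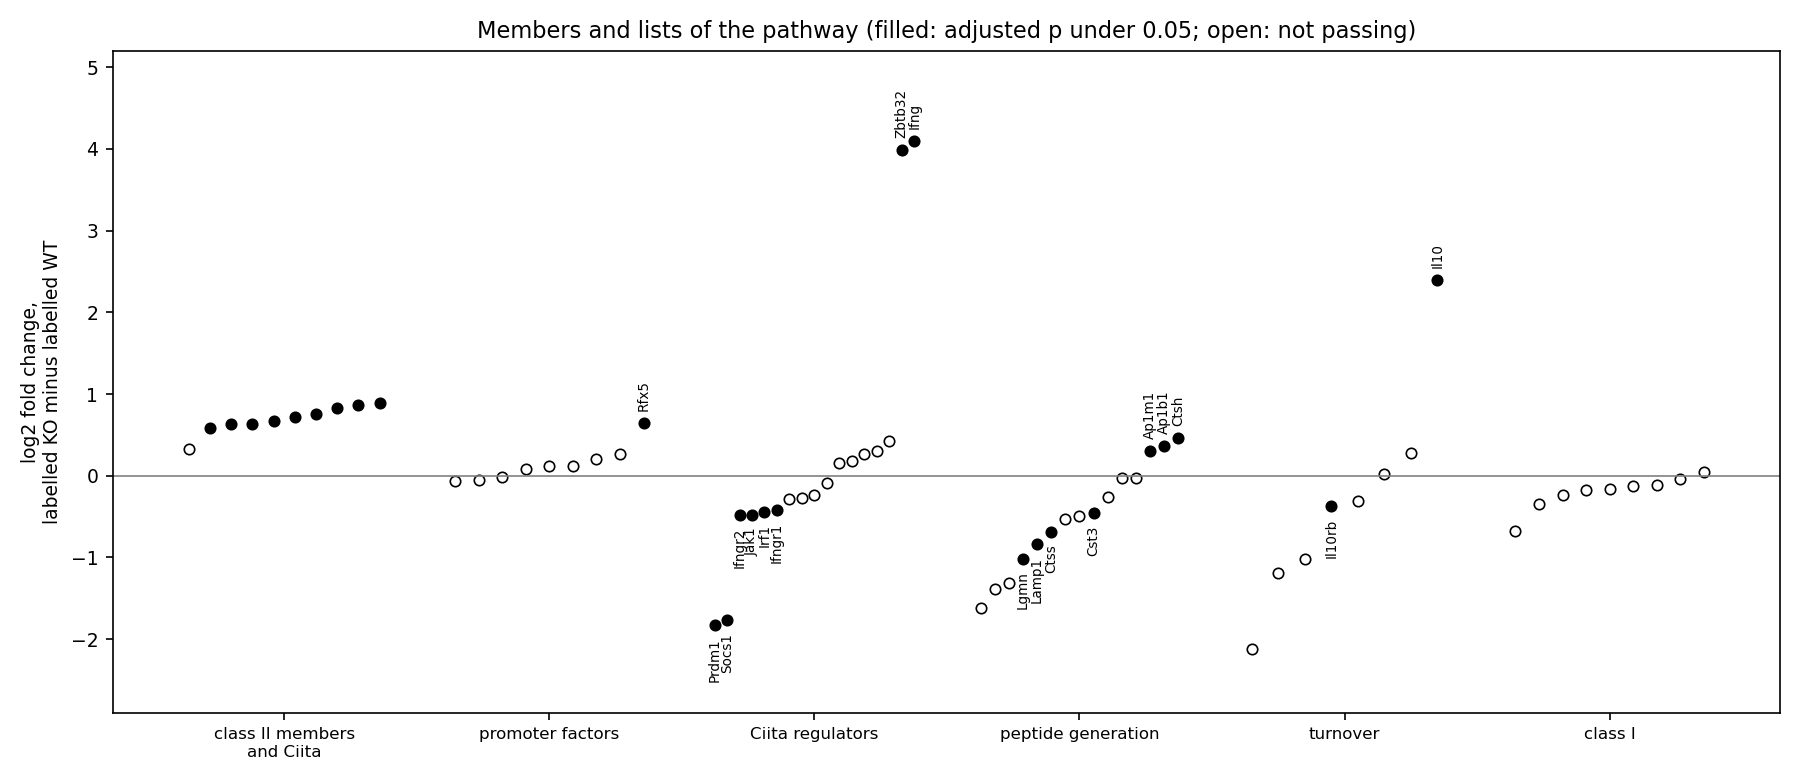
Log2 fold change, labelled KO minus labelled WT, of the members and of each tested gene of the pathway lists with TMM scaling; filled points passed at an adjusted p under 0.05 and open points did not. The members' points run from 0.33 to 0.89, whereas the lists hold points on both sides of 0. Scaled to 12 pan-B genes, 7 of the 10 members are below 0, and the genes of the lists move down by about the same amount.

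The 8 members on chromosome 17 lie within 249 kb, from the start of H2-Oa to the end of H2-Eb2. The same stretch holds 6 other genes of the table, Brd2, Psmb9, Tap1, Psmb8, Tap2 and H2-Eb2. With TMM 0 of these 6 passed in either direction, where 9.37% of all tested genes passed. Psmb9, Tap1, Psmb8 and Tap2 are also in the class I list, so the comparisons overlap. Scaled to 12 pan-B genes, all 9 class I genes and H2-Eb2 (-0.62, edgeR adjusted p = 0.00773) passed as lower. So did 74.4% of all tested genes. With TMM the log2 fold changes of the 6 genes ran from -0.16 for Tap2 to 0.22 for H2-Eb2. All 6 thus lay below the lowest member of the stretch, H2-Ob at 0.33, although the difference between members and neighbours was not tested. Ciita and Cd74 lie on other chromosomes.

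**Figure D4:**
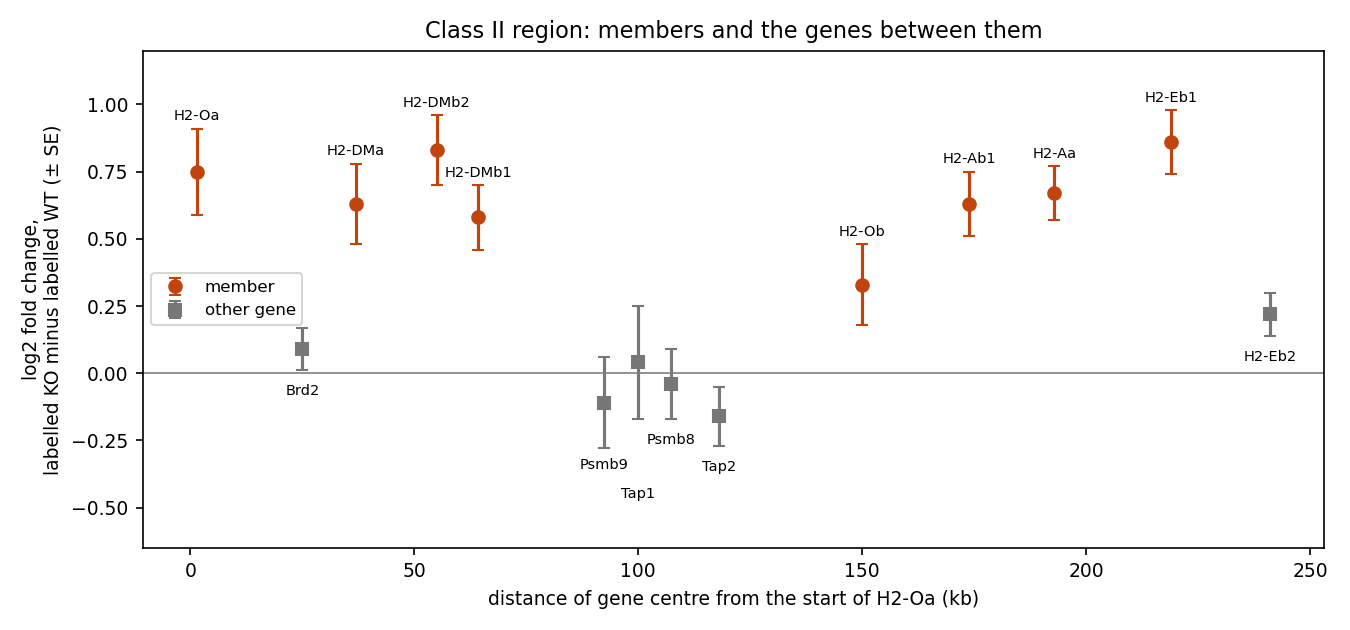
Log2 fold change, labelled KO minus labelled WT with TMM scaling, against the distance of each gene's centre from the start of H2-Oa; circles are members, squares the other genes, and bars the SE. The members lie between 0.33 and 0.86 and the genes between them from -0.16 to 0.22. Scaled to 12 pan-B genes, H2-Oa, H2-DMa, H2-DMb1, H2-Ob, H2-Ab1 and H2-Aa are below 0, and the other genes move down by about the same amount.

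The members shared a profile over the 6 libraries. WT replicate 2 was the highest of its group for all 10. Measured as the root mean square distance from the members' mean centred log2 profile, Cd74 was nearest at 0.0351, Ciita stood at 0.121 and H2-Ob was farthest at 0.190. Among 7320 other genes with a mean of at least 20 CPM, the nearest by the same measure were Eml4 (0.0311), Dmxl1 (0.0389), Ripor2 (0.0504), Pde7a (0.0532), Mef2c (0.0548) and Haus5 (0.0574). These 6 were picked for this likeness, and their log2 fold changes, from 0.65 to 0.76, are a description.

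Pan-B genes, which B cells in general express, were set beside the members. Of 12 pan-B genes 6 were higher and 0 lower, where 4.55% of all tested genes were higher and 4.81% lower. Their median log2 fold change was 0.62. Their summed level was 12312, 13280 and 12125 CPM in the KO-labelled libraries, against 5879, 8627 and 7004 CPM in the WT-labelled libraries. WT replicate 2, highest of its group for the members, was also highest of its group here. In this list 4 genes differed by over 2-fold, among them Ms4a1, which encodes CD20, Cd22, an inhibitory receptor, and Fcrla, with log2 fold changes of 1.24, 1.15 and 1.22. The other 8 pan-B genes summed to 7308, 7661 and 7052 CPM in the KO-labelled libraries, against 4551, 6802 and 5525 CPM in the WT-labelled libraries.

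Scaling to the pan-B genes moved the members and all other genes by about the same amount, so a change of sign follows from the scale. With all 12 as the scale, the median over all tested genes was -0.83, against 0.01 with TMM, and that over the members -0.13, against 0.70 with TMM. Ciita stood at 0.06, H2-Eb1 at 0.04 and H2-DMb2 at 0.01, the other members were below 0, and H2-Ob passed as lower (log2 fold change -0.48, edgeR adjusted p = 0.00754). With the 8 genes that differed by less than 2-fold, a choice made after their values were seen, the median over all genes was -0.41 and that over the members 0.29. Then 9 members were above 0 and H2-Ob was at -0.05, and 0 were called, where 0.67% of all tested genes were called higher and 8.47% lower. Ciita had 0.48 (edgeR adjusted p = 0.0622) and H2-Eb1 0.46 (edgeR adjusted p = 0.0618). The members' summed CPM over that of these 8 genes was 1.80, 1.82 and 1.77 in the KO-labelled libraries, against 1.64, 1.42 and 1.36 in the WT-labelled libraries, without overlap.

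**Figure D5:**
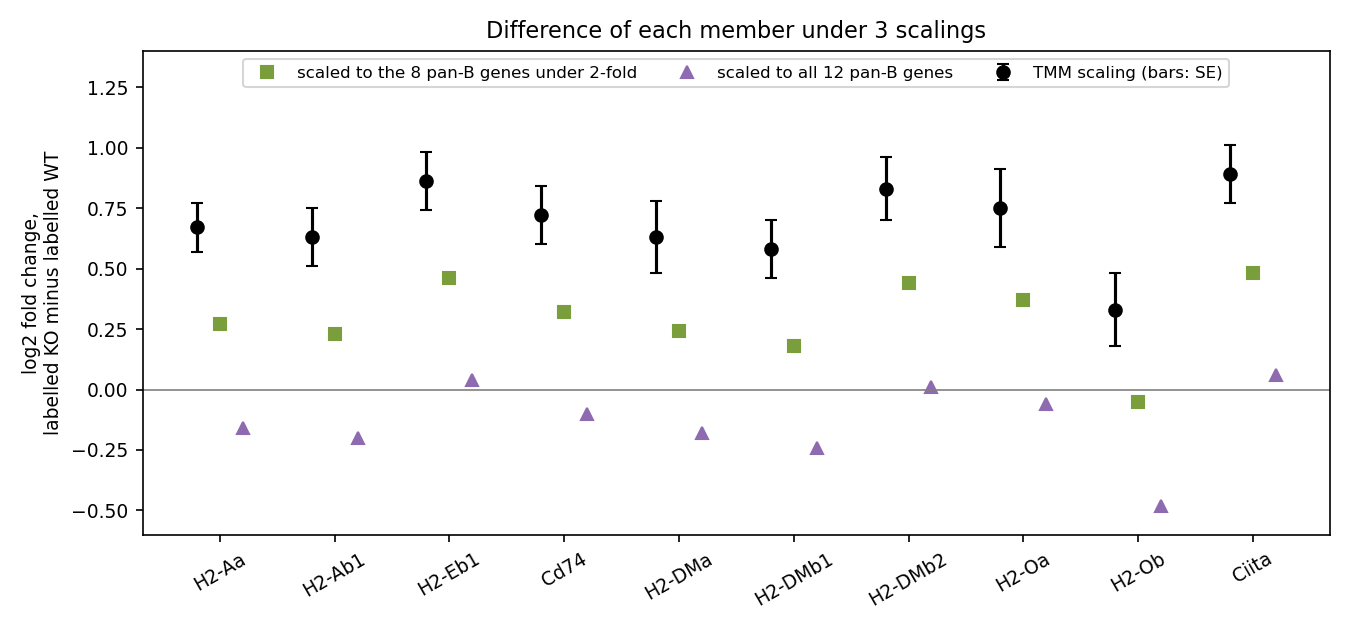
Log2 fold change, labelled KO minus labelled WT, of each member under 3 scalings; circles with SE bars are TMM, squares the 8 pan-B genes that differed by less than 2-fold, and triangles all 12 pan-B genes. All 10 members are above 0 with TMM, 9 with the 8 genes and 3 with all 12.

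Class II is also expressed by dendritic cells and macrophages, and the markers of several other cells summed lower in the KO-labelled libraries. The 12 dendritic cell markers summed to between 184 and 270 CPM in the KO-labelled libraries and between 291 and 483 CPM in the WT-labelled libraries, with 0 of 11 tested higher and 2 lower (median -1.05). Those lower were Flt3, a cytokine receptor of dendritic cell precursors, and Itgax, which encodes CD11c, while Xcr1 reached at most 0.266 CPM in the KO-labelled libraries and 0.859 CPM in the WT-labelled libraries. Most of the dendritic sum came from Tbc1d4, with means of 133.2 CPM in the KO-labelled libraries and 221.4 CPM in the WT-labelled libraries, which did not pass (edgeR adjusted p = 0.138). The 14 monocyte and macrophage markers summed to between 1012 and 1849 CPM in the KO-labelled libraries and between 2289 and 6059 CPM in the WT-labelled libraries, with 0 higher and 2, Cd14 and Fcgr1, lower (median -1.54). Neutrophil markers summed to between 133 and 281 CPM in the KO-labelled libraries and between 769 and 6159 CPM in the WT-labelled libraries, with 0 of 12 higher and 2, Mpo and Elane, lower (median -3.91). T and NK cell markers summed to between 24.7 and 45.1 CPM in the KO-labelled libraries and between 95.7 and 434 CPM in the WT-labelled libraries, with 0 of 9 tested higher and 1 lower (median -2.72). The 8 erythroid markers summed to between 329 and 1543 CPM in the KO-labelled libraries and between 661 and 8181 CPM in the WT-labelled libraries, with 0 higher and 0 lower. Platelet markers summed to between 26.6 and 67.5 CPM in the KO-labelled libraries and between 76.4 and 133.7 CPM in the WT-labelled libraries, with 0 of 4 tested higher and 1 lower. Plasma cell markers summed to between 759 and 841 CPM in the KO-labelled libraries and between 752 and 933 CPM in the WT-labelled libraries, with 1 of 6 tested higher and 1 lower (median 0.03). With the replicate block more markers were called lower, namely 6 of 11 dendritic, 12 of 14 monocyte and macrophage, 7 of 12 neutrophil, 4 of 9 T and NK cell and 3 of 4 platelet markers, and 2 plasma cell markers were called higher. Over all tested genes the block called 12.8% lower and 7.96% higher, against 4.81% lower and 4.55% higher without the block. The calls of Fcgr1 and Mpo were each lost in 5 of the 6 fits with a library left out (adjusted p up to 0.169 and 0.141), and those of Itgax and Elane without KO replicate 2 (adjusted p = 0.0782 and 0.0556). Among T and NK cell markers the single call, Cd8b1, was lost without any 1 KO-labelled library. None of the markers in the table was at 0 in all 6 libraries. The part of these other cells, and of the pan-B genes, in the differences of the class II members was not tested.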

How the data were processed

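The authors deposited estimated counts per gene and per transcript, not scaled to depth, with FPKM and TPM beside them, per the file headers. Values with a fractional part made up 5.87% of the gene table (tolerance 1e-06). Per the submitters' processing notes, the tools were RSEM 1.3.1, HISAT2 2.0.4 and Bowtie2 2.2.5 on the mm10 build, in roles that are not stated. Per the labels' protocols, mRNA was captured with oligo(dT), primed with random hexamers and read in pairs on a BGIseq500, with no strand-keeping step stated. A further 12 columns of values per library and 16 of the authors' means were not used.

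The deposited estimated counts were rounded and tested across all genes with edgeR 4.0.16 (filterByExpr by group, TMM, robust quasi-likelihood F-test, Benjamini-Hochberg over all tested genes, threshold 0.05) in R 4.3.3. Standard errors were derived from the F statistic, and CPM are TMM-scaled. Ratios between members used the authors' TPM with a pseudocount of 0.1, and the authors' FPKM with the same pseudocount served as an alternative. DESeq2 1.42.0, limma 3.58.1 (voom), other scalings, no filter and omission of single libraries were the alternatives. Depth was about the same in all libraries, and 3 counts, the upper limit of a count of 0, came to about 0.2 CPM; this limit covers counting error only, since reads were not tied to single molecules.

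The labels number the replicates of both groups 1 to 3 and do not say what a number stands for. Deviations of same-numbered libraries from their group means correlated across genes at 0.133, 0.362 and 0.170. Those of differently numbered libraries correlated at -0.218 to 0.0365, so the number was also tried as a block. Within groups of 3 these values depend on each other, and they do not show that an equal number marks a pair. Gene coordinates and promoters come from RefSeq on GRCm38.p6, and transcript starts from GENCODE M21.

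The members, the pathway lists and the marker lists were chosen with earlier results of these data known. Named are all members, Ffar1, up to 4 genes of smallest p per pathway list with Prdm1, Zbtb32 and H2-Eb2, the 6 genes nearest to the members' profile, and markers beside a result; other genes are said to be named after their values were seen. Some genes of the lists are not reported here. H2-Ea was not analysed here.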

Additional observations from a re-analysis of the deposited data

How the results depend on the processing

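The 9 members called were 9 with DESeq2, limma voom and DESeq2 size factors and 8 with library totals or no filter. Scaled to 12 pan-B genes 0 were called higher, with a median of -0.13, and the differences turned to -0.16 for H2-Aa, -0.20 for H2-Ab1, -0.18 for H2-DMa, -0.24 for H2-DMb1, -0.06 for H2-Oa, -0.48 for H2-Ob and -0.10 for Cd74. Scaled to the 8 pan-B genes under 2-fold, chosen after seeing the data, 0 were called, the median was 0.29 and H2-Ob stood at -0.05. With a library left out, 2 to 10 members were called and the median lay between 0.65 and 0.83; without WT replicate 1 and KO replicate 3 together, also chosen after seeing the data, 6 were called. Across all genes, 1146 were called, against 2246 with DESeq2, 2535 with the replicate block, 9180 scaled to 12 pan-B genes, 567 without that pair and 264 to 2030 with a library left out. Of the pathway lists 18 genes were called, against 30 with DESeq2, 32 with the replicate block, 57 scaled to 12 pan-B genes, 6 without that pair and 3 to 27 with a library left out. No transcript of the members was called by edgeR at the adjusted threshold. At an unadjusted p under 0.05 there were 12, and DESeq2 called 11 and limma voom 3, without a share over all transcripts. The ratio of Cd74 to the alpha and beta chains differed by -0.01 to 0.04 in log2 with a library left out, and turned below 0 without WT replicate 1. The replicate block changed the call of H2-Ob among the members and of no other. The causes were not tested. With 3 libraries a group no exact test could pass, and a count of 0 allows up to 3 counts.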
